A study of Homo sapiens with 6 samples.

Results

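The 8 members of the EGF receptor family and its ligands, the receptors EGFR, ERBB2 and ERBB3 and the ligands AREG, EREG, HBEGF, TGFA and NRG1, were followed in a knockdown of parathyroid hormone-related protein (PTHrP). All probe sets for which the array's annotation lists a member as the only gene were taken, which gave 23 of 22283 probe sets on the array and covered 7 of the 8 members. The annotation used here named no probe set for AREG alone, so AREG has no values. The cells were MDA-MB-231, a mesenchymal-like line established from human breast cancer. The groups were siPTHrP, cells electroporated with an siRNA against PTHrP, and siLuc, cells electroporated with a control siRNA. Both were harvested 3 days later in 3 independent experiments, with 1 array per group and experiment. Both groups are the same cell line and both went through electroporation. The PTHrP transcript was not analysed here, so no value shows the knockdown.

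The EGF receptor family consists of receptor tyrosine kinases that pair on ligand binding and signal through RAS and ERK and through PI3K and AKT. EGFR binds TGFA, AREG, EREG and HBEGF, ERBB2 has no known soluble ligand and acts as a partner, and ERBB3 has a weak kinase and binds NRG1. The ligands are made as membrane-anchored precursors and are released by metalloproteases, mainly ADAM10 and ADAM17. MDA-MB-231 is known for abundant EGFR and for the lack of oestrogen receptor, progesterone receptor and ERBB2 amplification. EGF receptor ligands are known to raise PTHrP expression in several epithelial and tumour cells.

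Promoter stretches are shown for EGFR, the receptor of the family, and for EREG and HBEGF, because the EREG probe set was higher with siPTHrP in each experiment while the brightest HBEGF probe set differed little. The 250 bases before the annotated start of each gene were taken from RefSeq (GRCh38.p14) and are printed 5′ to 3′ on the gene's strand. Capitals mark matches on either strand to the CRE half-site TGACG, bound by cAMP-responsive factors, the GC box GGGCGG, the AP-1 site TGANTCA or the TATA box TATAAA.
EGFR, chr7:55018767-55019016, plus strand: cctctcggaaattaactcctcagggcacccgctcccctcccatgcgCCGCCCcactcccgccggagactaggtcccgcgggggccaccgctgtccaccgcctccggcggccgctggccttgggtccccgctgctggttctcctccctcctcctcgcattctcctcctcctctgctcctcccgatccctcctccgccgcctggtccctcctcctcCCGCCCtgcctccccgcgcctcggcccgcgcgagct
EREG, chr4:74364895-74365144, plus strand: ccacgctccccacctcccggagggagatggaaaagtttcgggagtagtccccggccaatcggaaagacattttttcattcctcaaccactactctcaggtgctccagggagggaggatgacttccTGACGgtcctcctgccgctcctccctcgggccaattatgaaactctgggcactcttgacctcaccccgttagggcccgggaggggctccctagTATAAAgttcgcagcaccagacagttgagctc
HBEGF, chr5:140346604-140346853, minus strand: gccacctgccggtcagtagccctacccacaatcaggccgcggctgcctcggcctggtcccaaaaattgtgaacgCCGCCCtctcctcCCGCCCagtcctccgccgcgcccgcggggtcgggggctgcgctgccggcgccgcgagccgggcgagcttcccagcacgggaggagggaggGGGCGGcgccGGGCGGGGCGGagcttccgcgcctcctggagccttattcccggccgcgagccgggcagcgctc
The EREG stretch held 1 TATA box, 32 bases before the start, and 1 CRE half-site, 125 bases before it. The EGFR stretch held 2 GC boxes and the HBEGF stretch 5, some of them overlapping, and neither held a TATA box or a CRE half-site. Of 27303 RefSeq promoters of this length, 21.7% held a CRE half-site, 42.3% a GC box, 11.1% a TATA box and 6.60% an AP-1 site. The TGFA promoter also held 1 CRE half-site, 154 bases before the start, with 3 GC boxes and no TATA box. The ERBB2 promoter held 1 AP-1 site, 222 bases before the start, and none of the other motifs. The AREG promoter, for a gene with no values here, held the full CRE site TGACGTCA, 65 bases before the start, which 1.77% of promoters held. RefSeq promoters were matched for 6 of the 8 members, and a match is a run of letters, not a shown binding site.

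One array, siLuc of experiment 1, was unlike the remaining 5. It had a Spearman correlation of 0.716 to 0.725 with them across probe sets, and those 5 gave 0.882 to 0.960 with each other. Its 18 spiked hybridisation controls had a geometric mean signal of 273057, where the other 5 arrays lay between 10838 and 41428. It was the highest or the lowest of the 6 arrays for 13 of the 17 member probe sets that passed the filter on low signal, and for 63.97% of all 13329 that passed. Main results that rest on it are also given without it, and its part in the rest was not tested. The mesenchymal-like markers of the line had summed signals of 218093 to 305844 with siPTHrP and 253614 to 295545 with siLuc over 7 genes, led by VIM and LGALS1. Of these 7 genes 6 passed the filter. SPARC did not, with 25, 226 and 27 with siPTHrP, against 842.6, 77 and 466 with siLuc. Luminal epithelial markers summed to 14874 to 17554 with siPTHrP and 16219 to 19706 with siLuc over 9 genes. Among them the progesterone receptor PGR, below the filter, had 31, 9 and 31 with siPTHrP, against 858.2, 50 and 23 with siLuc, so only the siLuc array of experiment 1 stood apart. Of the same list the keratin KRT19 had 1187, 1713 and 966 with siPTHrP, against 618.3, 726 and 750 with siLuc, and EPCAM, an epithelial adhesion molecule below the filter, had 342, 298 and 263 with siPTHrP, against 245, 39 and 41 with siLuc. Every siPTHrP array was above every siLuc array for both KRT19 and EPCAM. Among probe sets that passed the filter 8.94% had this, and no share was computed for those that, like EPCAM, did not pass. The log2 fold change of KRT19 was 0.83 (SE 0.39, limma adjusted p = 0.429). The oestrogen receptor gene ESR1, on its brightest probe set, passed the filter and went the other way, at 575, 555 and 154 with siPTHrP, against 1719.8, 622 and 482 with siLuc. The ESR1 groups overlapped, with the highest value on the siLuc array of experiment 1, and passing the filter is not a call of expression. The log2 fold changes of GATA3, KRT18, FOXA1, PGR and CDH1 were also below 0, and that of KRT8 was 0.084. Leukocyte markers summed to 911 to 1202 with siPTHrP and 985 to 2930 with siLuc over 4 genes, with the top siLuc value on the array of experiment 1. Fibroblast or adipocyte markers summed to 2385 to 2988 with siPTHrP and 3286 to 3630 with siLuc over 3 genes, so these sums did not overlap. COL1A1, a collagen that made up most of each sum, had 2653, 2433 and 1949 with siPTHrP, against 2500, 3198 and 2475 with siLuc, which overlapped. The part of these marker differences in the member values was not tested. No marker that passed the filter had an unadjusted limma p under 0.05.

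The comparison asked whether the receptors and ligands differ in siPTHrP cells from siLuc cells of the same experiment. No member probe set passed the test (0 of 17 at a Benjamini-Hochberg adjusted p under 0.05 in limma, with percent called 0 over all 13329 probe sets). At an unadjusted limma p under 0.05 there were 2 of 17, against 12.1% of all probe sets, a share near that background. They were 1 NRG1 probe set that was higher with siPTHrP, where 6.77% of all were called, and 1 EGFR probe set that was lower, where 5.36% were called. The brightest EGFR and HBEGF probe sets had fold changes of 1.04 and 0.999, and EREG was higher with siPTHrP in 3 of 3 experiments without passing. The 17 log2 fold changes had a median of 0.054, where all probe sets that passed the filter had a median of 0.030, and 11 of the 17 were above 0, against 52.5% of all. Averaging experiments 2 and 3 alone, over the same probe sets, the member median was -0.12 with 5 of 17 above 0, against a median of -0.026 and 47.6% above 0 for all probe sets. The sign was the same in all 3 experiments for 3 of 17, where 38.1% of all probe sets had this. In bulk RNA, fewer cells with a transcript and less of it per cell cannot be told apart.

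**Figure D1:**
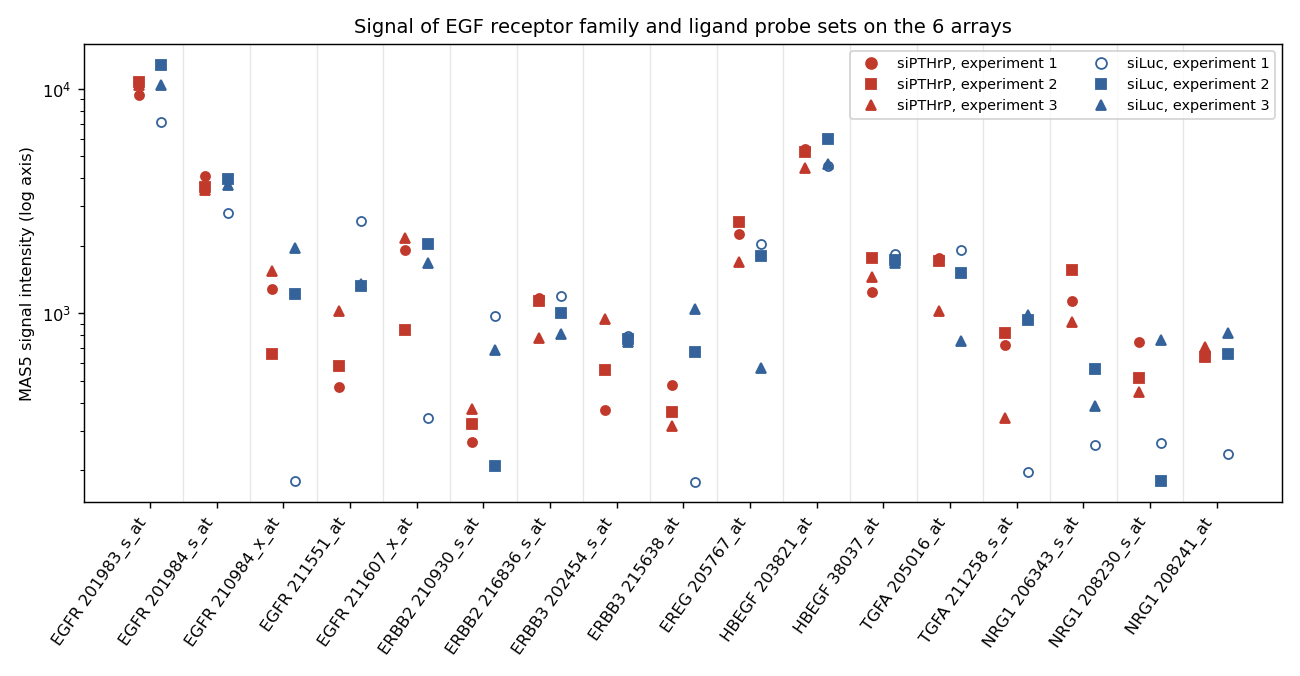
MAS5 signal intensity (log axis) of the 17 member probe sets that passed the filter, with siPTHrP arrays on the left in red and siLuc arrays on the right in blue, 1 point per array. The open circle is the siLuc array of experiment 1, which is the highest or lowest of the 6 for 13 of the 17.

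EGFR, the receptor that binds most of these ligands, was measured by 6 probe sets, of which 5 passed the filter. Probe set 201983_s_at, the brightest, had signals of 9421, 10754 and 10441 on the siPTHrP arrays of experiments 1, 2 and 3, against 7095, 12790 and 10422 on the siLuc arrays. The siPTHrP values lay inside the siLuc range. The fold change was 1.04, with a 95% interval of 0.781 to 1.38 (log2 fold change 0.054, SE 0.18, limma adjusted p = 0.915). Probe set 201984_s_at of EGFR gave 4101, 3646 and 3534 with siPTHrP, against 2792, 3953 and 3712 with siLuc. Here too the groups overlapped, and the lowest value was on the siLuc array of experiment 1. Its fold change was 1.09, with an interval of 0.770 to 1.54 (log2 fold change 0.12, SE 0.22, limma adjusted p = 0.827). Without experiment 1 the log2 fold changes of these EGFR probe sets were -0.12 and -0.093, so that the sign of both depended on that experiment.

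With all arrays the other EGFR probe sets did not share a direction. In experiments 2 and 3 alone the log2 differences of all EGFR probe sets averaged below 0. That includes 211550_at, which did not pass the filter, at -0.77. Over those experiments 5 of 17 member probe sets and 47.6% of all were above 0. Probe set 211551_at of EGFR had 470, 581 and 1025 with siPTHrP, against 2591, 1329 and 1355 with siLuc. Every siPTHrP array was below every siLuc array, as was the case for 9.69% of all probe sets. The log2 fold change was -1.33 (SE 0.44, fold change 0.398, 95% interval 0.198 to 0.797, limma adjusted p = 0.360). Its difference was -2.42, -1.17 and -0.40 on the log2 scale in experiments 1, 2 and 3. Without experiment 1 the EGFR 211551_at value was -0.78 (limma adjusted p = 0.332), and with only that siLuc array left out, which removes the pairing, it was -1.02 (adjusted p = 0.367). These are smaller than the value with all arrays and keep its sign.

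Probe sets 210984_x_at and 211607_x_at of EGFR, of a kind that can also detect similar transcripts, stood at log2 fold changes of 0.51 (SE 0.65) and 0.52 (SE 0.59), with limma adjusted p of 0.747 and 0.717. For 210984_x_at the signals were 1288, 662 and 1539 with siPTHrP, against 178.8, 1217 and 1961 with siLuc. The siLuc array of experiment 1 was the lowest on both EGFR probe sets, and without experiment 1 their log2 fold changes were -0.60 and -0.44. EGFR 211550_at did not pass the filter, with 99, 48 and 55 with siPTHrP, against 726.3, 71 and 136 with siLuc. No EGFR transcript form was assigned to a probe set here.

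ERBB2, the partner receptor without a known soluble ligand, was measured by 2 probe sets. On 216836_s_at ERBB2 had 1170, 1133 and 776 with siPTHrP, against 1197, 1004 and 808 with siLuc. The groups overlapped throughout, and experiment 3 had the lowest value in each. The fold change was 1.02, with a 95% interval of 0.580 to 1.79 (limma adjusted p = 0.980). On 210930_s_at ERBB2 had 268, 322 and 376 with siPTHrP, against 969.4, 210 and 687 with siLuc. The siPTHrP values were close together while those with siLuc spread widely around them, and the log2 fold change was -0.69 (SE 0.70, limma adjusted p = 0.682). The difference of ERBB2 210930_s_at was -1.79, 0.58 and -0.84 on the log2 scale in experiments 1, 2 and 3, and experiments 2 and 3 alone averaged -0.13. It was -1.32 without experiment 2 and -0.099 with array weights, so its size was poorly fixed.

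ERBB3, the kinase-impaired receptor for neuregulins, was also measured by 2 probe sets. On 202454_s_at ERBB3 had 372, 558 and 940 with siPTHrP, against 797.4, 769 and 747 with siLuc. The siLuc arrays were nearly equal, and the siPTHrP arrays lay below them in experiments 1 and 2 and above them in experiment 3. The log2 fold change was -0.40 (SE 0.49, 95% interval -1.51 to 0.72, limma adjusted p = 0.742). On 215638_at ERBB3 had 482, 363 and 317 with siPTHrP, against 178.3, 672 and 1050 with siLuc. The siLuc array of experiment 1 was below all others there, and the remaining siLuc arrays were above every siPTHrP array. With all arrays the log2 fold change of ERBB3 215638_at was -0.39 (SE 0.73, limma adjusted p = 0.831), and without experiment 1 it was -1.27 (limma adjusted p = 0.305).

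**Figure D2:**
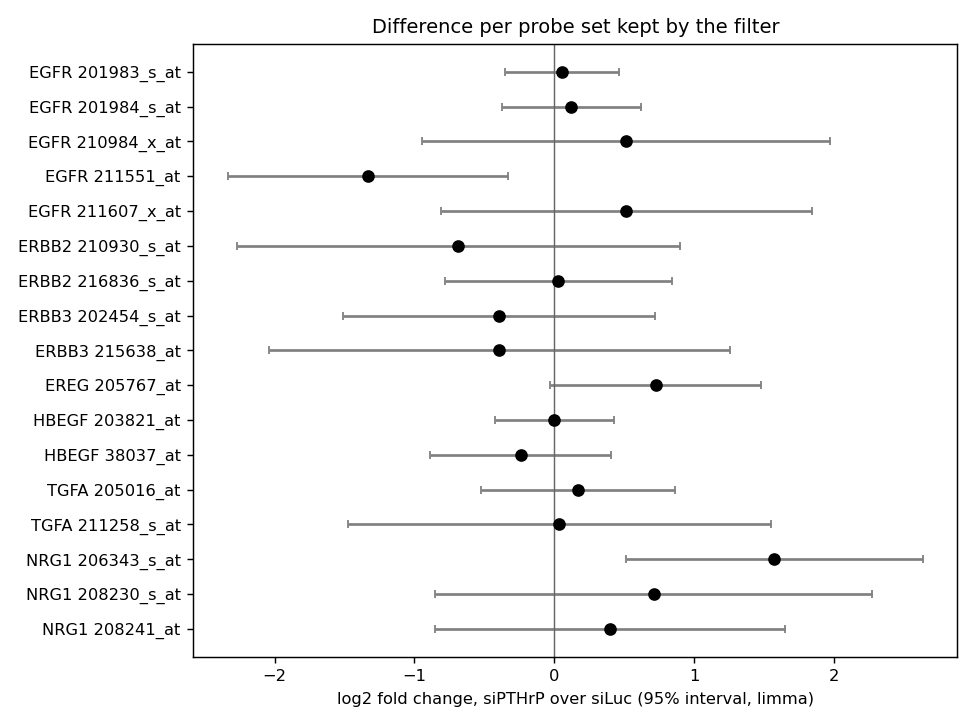
Log2 fold change, siPTHrP over siLuc, of each member probe set that passed the filter, with its 95% interval from limma. The intervals of NRG1 206343_s_at (0.52 to 2.64) and EGFR 211551_at (-2.33 to -0.33) exclude 0, before any adjustment, and the other 15 include it.

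EREG, epiregulin, a ligand of EGFR and ERBB4, was measured by 1 probe set, 205767_at. It had signals of 2247, 2564 and 1687 with siPTHrP, against 2030, 1808 and 574 with siLuc. The siPTHrP array was the higher of the pair in each experiment, but the groups overlapped, since siPTHrP in experiment 3 lay below siLuc in experiments 1 and 2. Its mean was 2166 ± 444 with siPTHrP and 1471 ± 784 with siLuc (SD, n = 3 each). The log2 fold change of EREG was 0.73 (SE 0.33, fold change 1.65, 95% interval 0.981 to 2.78, limma adjusted p = 0.424). By experiment the log2 difference was 0.15, 0.50 and 1.53, so experiment 3 gave most of it. Leaving out experiment 3 brought EREG to 0.32 (limma adjusted p = 0.780), and leaving out experiment 1 brought it to 1.01 (limma adjusted p = 0.177).

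HBEGF, the heparin-binding ligand of EGFR and ERBB4, had 3 probe sets, of which 2 passed the filter. On 203821_at, its brightest, HBEGF had 5412, 5247 and 4439 with siPTHrP, against 4547, 5982 and 4644 with siLuc. The means were 5033 ± 521 with siPTHrP and 5058 ± 802 with siLuc (SD, n = 3 each), and the ranges overlapped. The fold change was 0.999, with a 95% interval of 0.744 to 1.34 (limma adjusted p = 0.998). On 38037_at HBEGF had 1244, 1772 and 1458 with siPTHrP, against 1832, 1734 and 1669 with siLuc, with a fold change of 0.848 and an interval of 0.541 to 1.33 (limma adjusted p = 0.732). HBEGF 222076_at did not pass the filter, with 79, 30 and 52 with siPTHrP, against 208.8, 93 and 132 with siLuc. All 3 siPTHrP values were below all siLuc values on that dim probe set, which the brighter ones did not show. Among probe sets that passed the filter 9.69% had this, and no share was computed for those that did not pass.

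TGFA, a ligand of EGFR, had 3 probe sets, of which 2 passed the filter. On 205016_at TGFA had 1758, 1718 and 1025 with siPTHrP, against 1907, 1507 and 755 with siLuc. Both groups had their lowest value in experiment 3, and they overlapped. The fold change was 1.12, with a 95% interval of 0.694 to 1.82 (limma adjusted p = 0.830). On 211258_s_at TGFA had 720, 815 and 342 with siPTHrP, against 196.3, 939 and 987 with siLuc. The siLuc array of experiment 1 was the lowest of all, and the difference was 1.79, -0.20 and -1.49 on the log2 scale in experiments 1, 2 and 3. TGFA 205015_s_at, at 46 to 100 with siPTHrP and 46 to 296.6 with siLuc, did not pass the filter.

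EREG and TGFA 205016_at both had their lowest signal on each side in experiment 3. ERBB2 216836_s_at shared that order. The brightest EGFR probe set did not, since its siPTHrP signal in experiment 3 lay between the others.

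**Figure D3:**
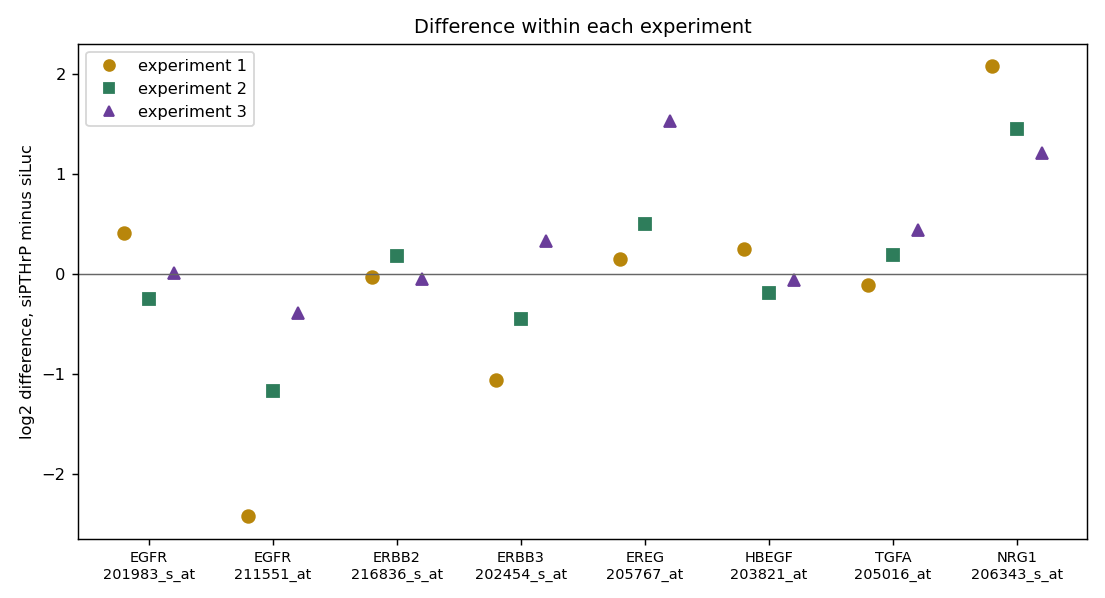
Log2 difference, siPTHrP minus siLuc, within each of the 3 experiments for 8 member probe sets. Shown are the brightest of each gene with values, and EGFR 211551_at, added because its sign was the same in all 3. The sign was the same for 3 of the 17 that passed the filter, where 38.1% of all probe sets had this. NRG1 206343_s_at lies above 0 in all 3 (1.21 to 2.07), EREG above 0 in all 3 (0.15 to 1.53) and EGFR 211551_at below 0 in all 3 (-2.42 to -0.40), while the other 5 have both signs.

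NRG1, neuregulin 1, the ligand of ERBB3 and ERBB4 that is made in many transcript forms, had 6 probe sets, of which 3 passed the filter. On 206343_s_at NRG1 had signals of 1139, 1565 and 920 with siPTHrP, against 258.8, 564 and 389 with siLuc. Every siPTHrP array was above every siLuc array, as was the case for 8.94% of all probe sets. The means were 1208 ± 328 with siPTHrP and 403.9 ± 153 with siLuc (SD, n = 3 each). The log2 fold change was 1.58 (SE 0.47, fold change 2.98, 95% interval 1.43 to 6.22, limma adjusted p = 0.342). This was the largest absolute difference among the 17 member probe sets, and it was 2.07, 1.45 and 1.21 in experiments 1, 2 and 3. Without experiment 1 the value of NRG1 206343_s_at was 1.33 (limma adjusted p = 0.177), and with only its siLuc array left out, and so unpaired, it was 1.30 (limma adjusted p = 0.301).

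The other NRG1 probe sets did not share this pattern. On 208230_s_at NRG1 had 746, 517 and 445 with siPTHrP, against 265.2, 179 and 762 with siLuc. The siPTHrP array was higher in experiments 1 and 2 and lower in experiment 3, and the log2 fold change was 0.71 (SE 0.69, limma adjusted p = 0.667). On 208241_at NRG1 had 669, 643 and 708 with siPTHrP, against 237.9, 658 and 817 with siLuc. The log2 fold change there was 0.40 (SE 0.55, limma adjusted p = 0.768), and the siLuc array of experiment 1 stood below the other 5, which lay between 643 and 817. The remaining NRG1 probe sets did not pass the filter and are given as values only. NRG1 206237_s_at had 205, 117 and 382 with siPTHrP, against 360.7, 134 and 223 with siLuc. NRG1 208231_at had 258, 287 and 306 with siPTHrP, against 666.7, 290 and 363 with siLuc. NRG1 208232_x_at had 84, 91 and 836 with siPTHrP, against 1801, 94 and 519 with siLuc. On the last of these both arrays of experiment 2 were below 100 while those of experiment 3 were at 519 and above, and in experiment 1 the siPTHrP array was the dimmer of the pair. Which transcript forms these probe sets detect was not analysed here.

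Other genes of the pathway were read on the brightest probe set of each, from fixed lists made with earlier results of these data known. Of 54 listed genes 39 had a probe set naming them alone and 34 passed the filter, and 0 of the 34 passed the test in either direction (limma adjusted p 0.328 to 0.975). At an unadjusted limma p under 0.05 there were 2 of 34, both higher with siPTHrP, against 6.77% of all probe sets called in that direction. ERBB4, the remaining receptor of the family, had 581, 442 and 359 with siPTHrP, against 1397, 458 and 194 with siLuc, with a log2 fold change of -0.15 (SE 0.63). The ligands EGF and BTC, betacellulin, did not pass the filter: EGF lay at 57 to 291 with siPTHrP and 257 to 1100 with siLuc, and BTC at 20 to 98 with siPTHrP and 19 to 899.5 with siLuc. On all 3 of these genes the siLuc array of experiment 1 gave the highest signal.

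The list of proteases and iRhoms that release the ligands also held TIMP3, an inhibitor of metalloproteases, at a log2 fold change of 0.19. The 8 genes had a median of 0.19, with 7 above 0, against 0.030 and 52.5% above 0 for all probe sets. In experiments 2 and 3 alone the median was 0.12, with 5 of 8 above 0. ADAM10, a shedding protease, had 3856, 3492 and 2273 with siPTHrP, against 3471, 3141 and 1954 with siLuc. ADAM17, the main protease for TGFA and HBEGF, stood at a log2 fold change of 0.024 (SE 0.26), and RHBDF2, which carries ADAM17 to the cell surface, at 0.19 (SE 0.39). The groups overlapped for each of these 3 genes.

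Adaptors, ubiquitin ligases and inhibitors of the receptors had a median of 0.23 over 12 genes, with 8 above 0. In experiments 2 and 3 alone it was 0.12, again with 8 above 0. SHC1, an adaptor that links the receptors to RAS, had 7761, 8952 and 6425 with siPTHrP, against 4875, 5609 and 5354 with siLuc. Every siPTHrP value was above every siLuc value, as was the case for 8.94% of all probe sets. The log2 fold change of SHC1 was 0.53 (SE 0.18, limma adjusted p = 0.362). The other gene at an unadjusted p under 0.05 was GAB2, a docking protein, at 1.56 (SE 0.44, limma adjusted p = 0.328), which falls outside the genes named by rule and was named after its value was seen. GRB2, another adaptor, stood at -0.12 (SE 0.29), the ubiquitin ligase CBL at -0.15 (SE 0.68) and LRIG1, an inhibitor of the receptors, at -0.064 (SE 0.38).

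Downstream, the list from RAS to ERK had a median of 0.32 over 7 genes, 6 of them above 0, and the kinase MAPK3 stood at 0.36 (SE 0.72). In experiments 2 and 3 alone that median was 0.087, with 5 of 7 above 0. The list from PI3K to AKT had a median of -0.39 over 6 genes, 2 above 0, and the kinase AKT1 stood at 0.30 (SE 0.23). Experiments 2 and 3 alone gave -0.29, again with 2 above 0. None of these genes passed the test, and the siLuc array of experiment 1 was the highest or lowest of the 6 for 6 of the 7 genes from RAS to ERK and for 5 of the 6 from PI3K to AKT. Several listed genes had no probe set naming them alone and were not analysed here.

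**Figure D4:**
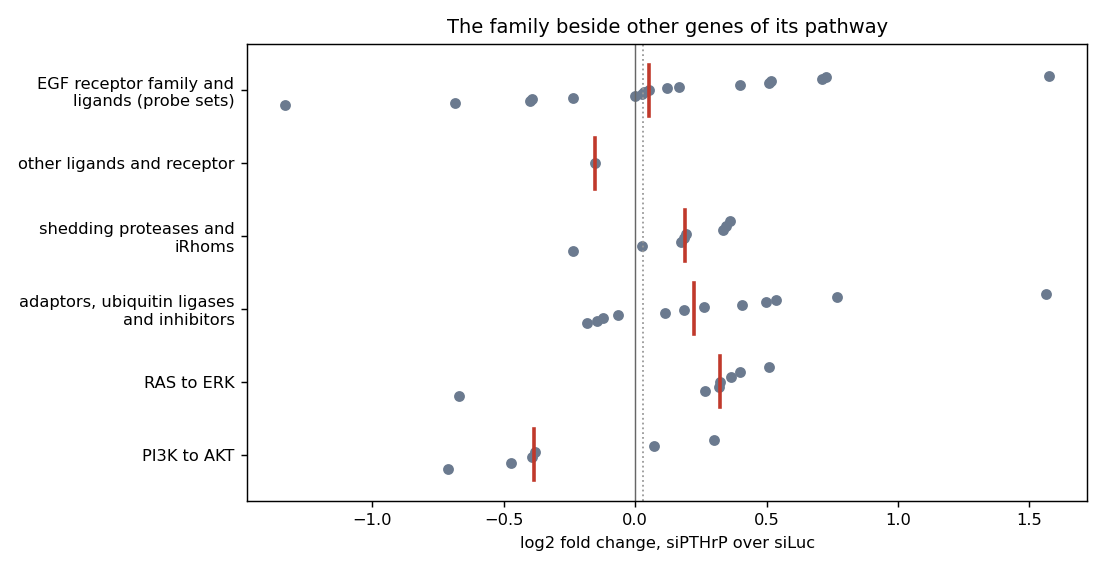
Log2 fold change, siPTHrP over siLuc, of the 17 member probe sets (top row) and of 34 other genes of the pathway in 5 lists, 1 point per probe set, with the median of each row as a red bar and the median of all probe sets (0.030) as a dotted line. The member probe sets span -1.33 to 1.58 around a median of 0.054.

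The genes whose signal was most like that of EGFR 201983_s_at over the 6 arrays were LRP2BP and FBXL12, with Pearson correlations of 0.990 and 0.989 on the log2 scale. Without the siLuc array of experiment 1 they were 0.993 and 0.990 over 5 arrays. These were picked as the highest among those of the 13329 probe sets that name 1 gene other than EGFR. The arrays are few and share scaling, and the correlations describe those arrays only.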

How the data were processed

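Total RNA of 6 MDA-MB-231 samples, 3 siPTHrP and 3 siLuc, was hybridised to Affymetrix U133 arrays of type A, 1 per RNA, per the labels. The deposited values are linear signal intensities. They were made with MAS5, as the submitters' processing notes say without a version or settings. MAS5 subtracts mismatch signal, so dim probe sets are noisy. Trimming 2% at each end, the mean deposited intensity was 1500.4 to 1500.6 on every array, and this scaling was left as it was. In siLuc of experiment 1, 90.1% of probe sets had decimals, and the other 5 arrays had none.

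Since the design text pairs RNAs by experiment, the experiment entered as a block. The unnumbered siLuc sample was taken as experiment 1 by elimination. The siLuc sample of experiment 3 was placed by its title, although its description has number 2. Deviations from group means correlated at -0.012, 0.157 and 0.157 within experiments 1, 2 and 3, and at -0.206 to 0.132 across them.

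With R 4.3.3 and limma 3.58.1, log2(intensity + 16) of 22215 probe sets (68 controls left out) was filtered at the 40th percentile of the mean, near a signal of 376, leaving 13329. Fold changes of dim probe sets are shrunk by the offset. lmFit and eBayes with an intensity trend (2 residual and 7.17 prior degrees of freedom) gave two-sided p-values, and calls were made at a Benjamini-Hochberg adjusted p under 0.05. The steps were run on simulated data with equal noise on all arrays and no experiment effect. That run does not cover an array like siLuc of experiment 1. Symbols were updated to RefSeq names through Entrez identifiers for 19053 of 19065 probe sets with 1 listed gene, while 1043 listed several and 2107 none, and these stayed unnamed.

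Members and lists were chosen with earlier results of these data known. All members were named on each probe set, other pathway genes by a fixed list on the brightest probe set, and the 2 genes most like EGFR by Pearson correlation. That likeness could not be computed for AREG. Some genes of the fixed list are not reported here.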

Additional observations from a re-analysis of the deposited data

How the results depend on the processing

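With no replicate block 0 probe sets passed, as in the paired fit, and 0 members and 0 other pathway genes passed under any of the 14 alternatives. Over all probe sets 177 passed with array weights, 33, 47 and 215 when experiment 1, 2 or 3 was left out, and 0 with only the siLuc array of experiment 1 left out, which was fitted unpaired. With the filter at the 60th percentile, which left 10 of 23 to test, 1 member probe set had an unadjusted limma p under 0.05, against 13.4% of all. Without experiment 1 there were 4 of 16, against 13.8%, and without its siLuc array alone 4 of 16, against 12.6%. Leaving out experiment 2 gave 2 of 18, against 9.96%, and leaving out experiment 3 gave 2 of 14, against 12.2%. There were 3 of 17 with median centring, against 12.4%, and 3 of 17 with array weights, against 17.4%. The remaining alternatives gave 2, against 9.29% to 12.5%. NRG1 206343_s_at ranged from 1.30 to 1.80, with adjusted p from 0.0946 to 0.593, EGFR 211551_at from -1.80 to -0.78, with 0.0969 to 0.532, and EREG from 0.32 to 1.05, with 0.162 to 0.780. NRG1 206343_s_at was not tested at the 60th percentile. The median of all kept probe sets was 0.089 with quantile normalization, 0.11 with median centring and -0.16 with no filter. Signs turned for other log2 fold changes, none past the threshold, and the cause was not tested. With quantile normalization EGFR 201983_s_at was -0.092, ERBB4 0.17, CBL 0.13 and LRIG1 0.15. With median centring HBEGF 203821_at was 0.080 and LRIG1 0.017. With array weights EGFR 201983_s_at, 201984_s_at, 210984_x_at and 211607_x_at were -0.11, -0.034, -0.34 and -0.38, TGFA 211258_s_at -0.39, ERBB4 0.10, ADAM17 -0.17 and LRIG1 0.046. When each experiment in turn was left out, those EGFR probe sets ranged from -0.12 to 0.21, -0.093 to 0.24, -0.60 to 1.20 and -0.44 to 1.40. ERBB2 216836_s_at ranged from -0.045 to 0.070, HBEGF 203821_at from -0.13 to 0.093, TGFA 211258_s_at from -0.84 to 0.80 and NRG1 208241_at from -0.12 to 0.70. Among pathway genes ADAM17 ranged from -0.20 to 0.21, GRB2 from -0.47 to 0.10, CBL from -1.16 to 0.41, LRIG1 from -0.24 to 0.079 and MAPK3 from -0.33 to 1.49. With only the siLuc array of experiment 1 left out, the EGFR probe sets were at -0.18, -0.030, -0.49 and -0.28, TGFA 211258_s_at at -0.70, NRG1 208241_at at -0.12, ERBB4 at 0.57, ADAM17 at -0.17, LRIG1 at 0.027 and MAPK3 at -0.073. The medians and counts above 0 in experiments 2 and 3 alone were chosen after seeing the data, and ERBB2 210930_s_at is not tested without experiment 1, where it did not pass the filter.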
